A study of Mus musculus with 6 samples.

Results

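The genes of the complement and coagulation systems were examined in mouse liver in which lipophagy, the autophagic breakdown of lipid droplets, had been induced. The list holds 49 genes, and all 49 were found by their symbols among the 24346 gene rows of the deposited table. Of these, 26 belong to complement and 23 to coagulation, its inhibitors and fibrinolysis. By the cell that mainly makes them, 41 are products of hepatocytes, 3 are the C1q chains of macrophages, and 5 are made mostly by other cells (Cfd, Cfp, C3ar1, C5ar1 and F8). From the age of 8 weeks male C57BL/6 mice received CDAHFD for 6 weeks, a diet rich in fat that lacks choline and supplies protein as free amino acids and is used as a model of nonalcoholic steatohepatitis. They were then returned to normal chow, and livers were taken 2 weeks later. Each mouse had received an adeno-associated virus whose thyroxine-binding globulin promoter is active in hepatocytes. The 3 control livers carried LDTS-LIR mut, a lipid droplet-targeting sequence (LDTS) joined to a mutated LC3-interacting region (LIR), and the 3 lipophagy livers carried LDTS-eLIR, the same targeting sequence with an engineered LIR that binds the autophagosome protein LC3. Diet, virus backbone and droplet targeting were therefore shared by both groups, and livers without virus or without the diet were not analysed here. The paper reports that the LDTS was itself lipogenic and led to lipid accumulation in the liver, and it chose LDTS-LIR mut as the control for that reason. The question of the comparison was how the expression of these genes differed between livers with and without induced lipophagy.

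Complement is a cascade of plasma proteins that marks particles for uptake, releases inflammatory peptides and assembles pores in membranes. It starts from C1q bound to antibody, from mannose-binding lectins bound to sugars, or from slow spontaneous turnover of C3, and all routes meet at the cleavage of C3. Coagulation is a second cascade of proteases that ends in thrombin, which turns fibrinogen into fibrin, while antithrombin, protein C and protein S hold it back and plasmin dissolves the clot. Hepatocytes secrete most of these proteins, whereas C1q comes mainly from macrophages, properdin and the anaphylatoxin receptors from myeloid cells, and factor VIII from sinusoidal endothelium.

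Values were FPKM, fragments relative to transcript length and to all mapped fragments of a liver, as the authors deposited them, so that levels of different genes can be compared per length. Differences were fitted with limma on log2(FPKM + 1) as lipophagy minus control over 11493 genes whose mean reached 0.5 FPKM, and p-values were adjusted over all of them. The low FPKM values moved in steps of 1 fragment, which placed the depth of the 6 livers between 22700000 and 33700000 fragments. The table's FPKM summed to 622696 to 681138 in control livers and 709993 to 782392 in lipophagy livers. Rescaling every liver to the same sum (TPM) moved the median difference of all tested genes from 0.020 to -0.13 and that of the members from 0.098 to -0.083, while rescaling to the same median left them at 0.021 and 0.10. Directions below are of FPKM as deposited, with TPM scaling and quantile normalization, which gives all livers one distribution, as the comparison. The hepatocyte markers Alb and Hnf4a and the macrophage markers Cd68 and Clec4f were present in all 6 livers, with Alb at 35470.0 FPKM or more and Hnf4a at 92.3 FPKM or more. In bulk tissue, fewer cells of a type and less RNA per cell cannot be told apart. The labels name no batch and do not say that the livers of a group are separate animals, so p-values measure the spread between these samples.

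In FPKM as deposited most coagulation genes had higher mean levels in the lipophagy livers, complement genes were divided, and the C1q chains had lower means with overlap between the groups, but no member passed the adjustment for multiple tests. The differences ran from -0.32 (C3ar1) to 0.39 (C8g) on the log2 scale. Of the 48 tested members 32 had a difference above 0 (66.7%, against 54.5% of all tested genes). Of the 49 members 48 passed the filter on low values, and 0 had an adjusted p below 0.05 (limma), against 0.0261% of all tested genes. The lowest adjusted p among members was 0.171, for F7. At an unadjusted p below 0.05, 12 of the 48 were higher (25.0%, against 11.5% of all tested genes) and 3 were lower (6.25%, against 7.97%). In 15 members every lipophagy liver lay above every control liver (31.2%, against 15.4% of all tested genes), and in 4 every lipophagy liver lay below (8.33%, against 10.8%). Leaving out control liver 2 reduced the 12 higher members to 4, near the 8.1% of all tested genes in that fit, and leaving out either lipophagy liver 1 or lipophagy liver 2 reduced them to 7 (6.96% and 9.41% of all tested genes). The 3 lower members became 0 when control liver 2 or control liver 3 was dropped, 1 when lipophagy liver 1 was, and 5 when lipophagy liver 2 was, where 5.24% to 7.39% of all tested genes were lower. With TPM scaling 0 members were higher and 12 lower at this threshold, against 2.05% and 21.8% of all tested genes. Most members are abundant, and abundant genes were higher in general. Among the 2733 tested genes that averaged 20 FPKM or more, a limit chosen after the values were seen, 28.1% were higher at an unadjusted p below 0.05 and the median difference was 0.16. The 43 members above this limit had 11 such genes (25.6%) and a median of 0.10, a share of higher members no larger than that of abundant genes in general.

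**Figure D1:**
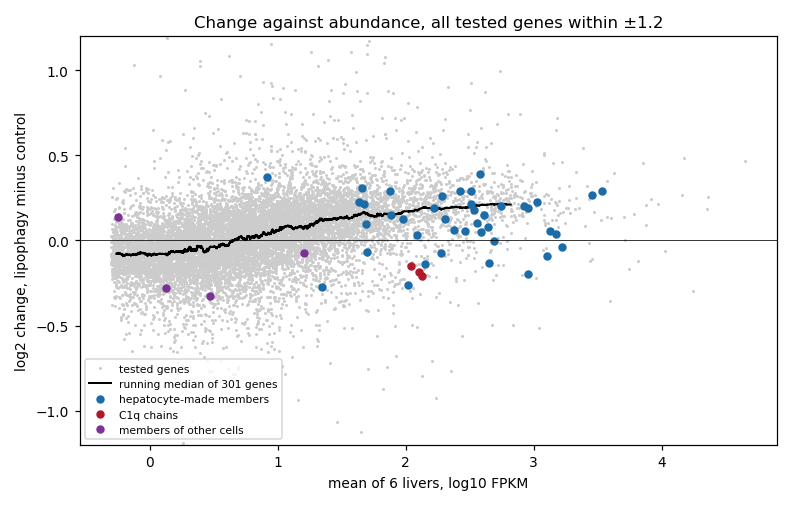
Log2 difference (lipophagy minus control, log2(FPKM + 1)) of each tested gene against the log10 of its mean FPKM over 6 livers, with members in colour and a running median as the line. The line climbs from below 0 at low FPKM to above 0 at high FPKM, and the members spread around it, with the 3 C1q chains below it (genes beyond 1.2 in size are not drawn).

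Divided by pathway, the 22 hepatocyte-made coagulation genes had a median difference of 0.20, with 19 above 0 (86.4%), and the 19 hepatocyte-made complement genes a median of 0.049, with 12 above 0 (63.2%, against 54.5% of all tested genes and 82.2% of those of 20 FPKM or more). At an unadjusted p below 0.05, 10 of the 22 coagulation genes were higher (45.5%) and 1 was lower (4.55%), and 2 of the 19 complement genes were higher (10.5%) and 0 lower. Over all tested genes the shares were 11.5% and 7.97%, and among those of 20 FPKM or more 28.1% and 3.15%, so the complement share of higher genes was near or below the background. Without overlap, 14 coagulation genes were higher (63.6%) and 1 complement gene was (5.26%), against 15.4% of all tested genes and 35.1% of those of 20 FPKM or more, and with TPM scaling 1 member in all was higher and 16 were lower without overlap, against 2.74% and 27.2% of all tested genes. With TPM scaling the medians were 0.014 and -0.13, and with quantile normalization 0.0064 and -0.14. The gap between the medians was 0.15 as deposited, 0.15 and 0.14 under these scalings, and 0.060 without lipophagy liver 1. The mean over coagulation genes less the mean over complement genes, each as a deviation from the gene's mean, was 0.056, -0.17 and -0.049 in the control livers and 0.18, -0.035 and 0.018 in the lipophagy livers, so the groups overlapped through control liver 1 and lipophagy livers 2 and 3. Under all 4 scalings compared, 17 members were higher and 15 were lower, and the other 16 depended on the scaling. Of these 16, 15 were higher and 1 was lower as deposited. TPM scaling moved the difference of every tested member downward, so members lower as deposited had little room to change sign. Being lower under every scaling is therefore a weaker check than being higher under every scaling.

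**Figure D2:**
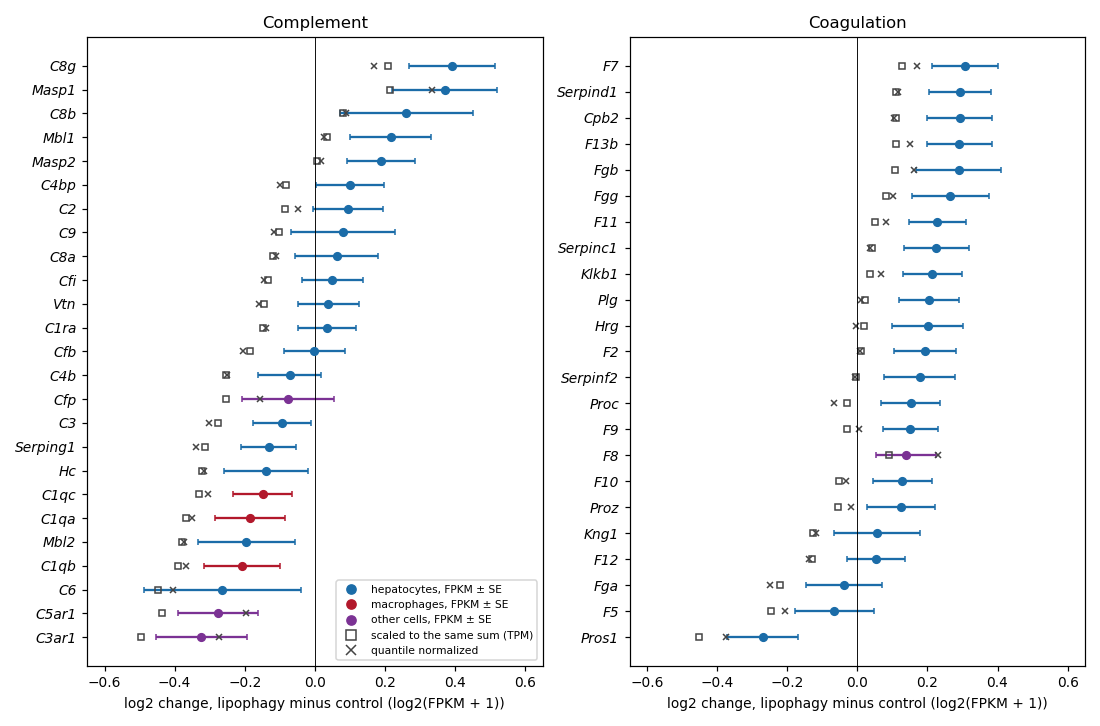
Log2 difference (lipophagy minus control) of the 48 tested members, with filled points for FPKM as deposited, bars for the standard error, open squares for TPM scaling and crosses for quantile normalization. With either scaling most complement genes lie below 0, though Masp1, Masp2, Mbl1, C8b and C8g stay above it. F7, Serpind1, Cpb2 and F13b are among the coagulation genes that stay above 0. Fga, F5, F10, F12, Kng1, Proc, Proz, Pros1 and Serpinf2 lie below it.

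Of 11 general hepatocyte markers tested, 0 passed the adjustment (limma, lowest adjusted p 0.135, Hpd) and 4 were higher at an unadjusted p below 0.05 (against 11.5% of all tested genes and 28.1% of those of 20 FPKM or more). A difference above 0 was found in 9 (6 with TPM scaling and 5 with quantile normalization, against 54.5% and 82.2% as deposited), with a median of 0.24 (0.061 with TPM scaling). Their summed level was 57824 to 64660.0 FPKM in control and 70045 to 92701 FPKM in lipophagy livers, most of it Alb. Their part in the results for secreted factors was not tested.

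The 3 C1q chains assemble into the recognition molecule of the classical pathway, and their genes lie side by side on the minus strand of chromosome 4 of GRCm38, at 136880129 to 136886187 (C1qb), 136889804 to 136893065 (C1qc) and 136895917 to 136898803 (C1qa). C1qa was at 120.1, 143 and 145 FPKM in the control livers and 121, 125 and 112 FPKM in the lipophagy livers. C1qb was at 126, 151 and 154 FPKM in the control livers and 117, 137 and 119 FPKM in the lipophagy livers. C1qc was at 108, 120.5 and 120.3 FPKM in the control livers and 109.7, 106 and 98.9 FPKM in the lipophagy livers. In each chain control livers 2 and 3 held high values and control liver 1 lay among the lipophagy livers, so the groups overlapped. The log2 differences were -0.18 (standard error 0.099, adjusted p = 0.330, limma) for C1qa, -0.21 (standard error 0.11, adjusted p = 0.317, limma) for C1qb and -0.15 (standard error 0.084, adjusted p = 0.357, limma) for C1qc. They were below 0 under every scaling and with each liver left out, from -0.30 to -0.11. The ratios of the chains overlapped between groups. C1qc over C1qa was 0.901, 0.843 and 0.831 in the control livers and 0.904, 0.851 and 0.886 in the lipophagy livers (two-sided exact permutation test, p = 0.4, adjusted over 6 ratios 0.48). C1qb over C1qa was 1.05, 1.05 and 1.06 in the control livers and 0.962, 1.10 and 1.06 in the lipophagy livers (exact permutation test, p = 0.9, adjusted 0.9).

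Markers of macrophages did not move as a block. Of 12 tested, 8 were lower and 4 were higher on average (11 and 1 with TPM scaling), where 54.5% of all tested genes were above 0 as deposited. Several of the 12 overlapped between the groups, and the lowest adjusted p was 0.151 (Csf1r, limma). The summed level was 544 to 704 FPKM in control and 529 to 657 FPKM in lipophagy livers. Cd68, a lysosomal membrane protein of phagocytes, was at 32.4, 35.1 and 43.0 FPKM in the control livers and 24.4, 30.1 and 29.3 FPKM in the lipophagy livers, and Csf1r, the receptor of macrophage colony-stimulating factor, at 15.6, 16.4 and 16.2 FPKM in the control livers and 12.7, 12.4 and 13.9 FPKM in the lipophagy livers. Both were lower without overlap, and under every scaling. Clec4f, a lectin of resident Kupffer cells, was at 29.97, 29.0 and 21.0 FPKM in the control livers and 33.3, 27.3 and 28.8 FPKM in the lipophagy livers, and Adgre1 (F4/80) had a log2 difference of 0.054, with overlap in both and signs that turned with TPM scaling (-0.010 and -0.10). Timd4 was under the filter, at 0.332, 0.125 and 0.174 and 0.374, 0.388 and 0.139 FPKM. The mean deviation of the C1q chains less that of the macrophage markers was -0.13, 0.10 and 0.14 in the control livers and -0.039, -0.017 and -0.062 in the lipophagy livers. On this measure control livers 2 and 3 stood above the rest, and control liver 1 was the lowest of the 6. The part of macrophage number in the C1q levels was not tested.

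**Figure D3:**
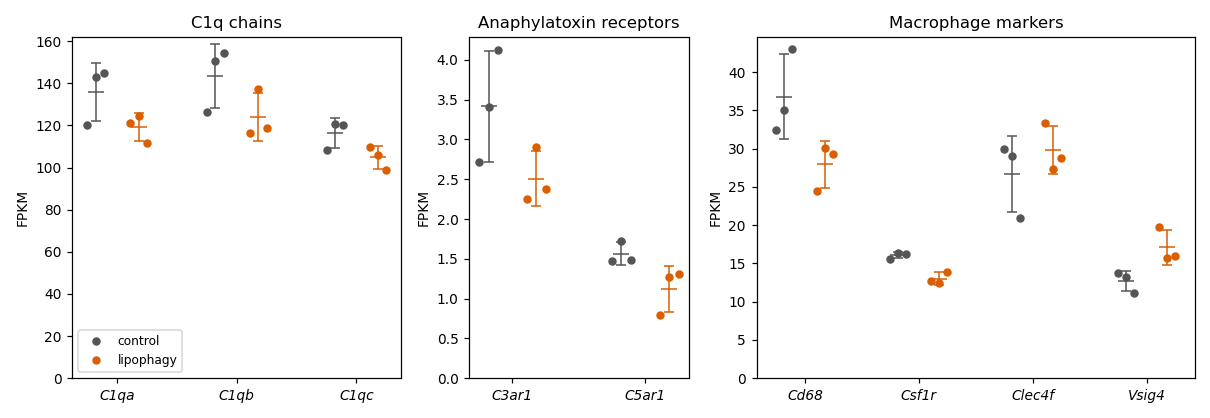
FPKM of the C1q chains, the anaphylatoxin receptors and 4 macrophage markers in each liver, with points for livers, horizontal ticks for the mean and bars for the SD (n = 3). Cd68 and Csf1r were lower in all 3 lipophagy livers, Clec4f overlapped, Vsig4 was higher, and for each C1q chain control liver 1 lay among the lipophagy livers.

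In FPKM as deposited the receptors for the complement peptides were the lowest of the complement members relative to control. C5ar1, which draws myeloid cells toward C5a, was at 1.47, 1.73 and 1.48 FPKM in the control livers and 0.793, 1.27 and 1.31 FPKM in the lipophagy livers, without overlap between the groups and with a log2 difference of -0.28 (standard error 0.11, adjusted p = 0.243, limma). C3ar1, the receptor of C3a, was at 2.71, 3.41 and 4.12 FPKM in the control livers and 2.25, 2.90 and 2.37 FPKM in the lipophagy livers, where lipophagy liver 2 lay above control liver 1, and its log2 difference was -0.32 (standard error 0.13, adjusted p = 0.239, limma). Both were lower under every scaling, with log2 differences of -0.16 for C5ar1 without lipophagy liver 1 and -0.21 for C3ar1 without control liver 3. At the estimated depth C5ar1 corresponded to 44.6 to 119.6 fragments a liver and C3ar1 to 220.1 to 577, against 1840.3 to 2889 for the secreted factor F11. Properdin (Cfp), which stabilizes the alternative convertase, was at 16.5 ± 2.36 FPKM in control and 15.6 ± 2.05 FPKM in lipophagy livers (SD, n = 3 in each), and its sign turned without lipophagy liver 2 (0.024). Cfd (adipsin), the protease that cleaves factor B and a product of fat cells, was barely present, at 0.149, 0 and 0 FPKM in control and 0.09999, 0 and 0.425 FPKM in lipophagy livers, or at most 8.04 fragments, and was not tested. The fat cell markers Adipoq and Lep were at or near 0 in all 6 livers.

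C3, the centre of the cascade and the most abundant complement gene after vitronectin, differed little. It was at 1305, 1326 and 1337 FPKM in the control livers and 1211, 1246 and 1261 FPKM in the lipophagy livers, so every lipophagy liver lay below every control liver by a small amount (log2 difference -0.094, standard error 0.083, adjusted p = 0.545, limma). Factor B (Cfb), the protease of the alternative convertase, was at 491 ± 27.8 FPKM in control and 490.3 ± 21.3 FPKM in lipophagy livers (SD, n = 3), with a log2 difference of -0.0019. Its sign turned with several of the livers left out, within -0.048 to 0.034. C4b, the classical counterpart of C3, was at 192 ± 9.12 FPKM in control and 183 ± 14.9 FPKM in lipophagy livers (log2 difference -0.071, standard error 0.090, from -0.13 without lipophagy liver 3 to -0.019 without lipophagy liver 2), and reads of its near copy C4a, listed at about 2.04 FPKM in control livers, could be split between the pair. C2, the protease subunit that joins C4b, was at 47.5 ± 0.770 FPKM in control and 51.0 ± 6.59 FPKM in lipophagy livers, highest in lipophagy liver 3. C2 and Cfb lie 86 bases apart on chromosome 17, and an annotated gene on the same strand (Gm20547) overlaps both, so their separate values are uncertain.

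Among the proteins that start the classical and lectin routes, both lectin proteases were higher on average in the lipophagy livers under every scaling. Masp1 was at 9.24, 5.85 and 6.22 FPKM in the control livers and 9.01, 8.89 and 10.04 FPKM in the lipophagy livers; control liver 1 reached the lipophagy range, and the log2 difference was 0.37 (standard error 0.15, adjusted p = 0.240, limma). It became 0.55 without control liver 1 and stayed above 0 under every scaling. Masp2, which cleaves C4 and C2, was at 157 ± 17.0 FPKM in control and 178 ± 8.24 FPKM in lipophagy livers, with overlap. The mannose-binding lectins went apart. Mbl1 was at 266, 332 and 306 FPKM in the control livers and 356, 381 and 312 FPKM in the lipophagy livers, with overlap through lipophagy liver 3 and a log2 difference of 0.22 (standard error 0.12, adjusted p = 0.330, limma), or 0.13 without control liver 1. Mbl2 was at 1007, 956 and 940.3 FPKM in the control livers and 1052, 748 and 766 FPKM in the lipophagy livers; lipophagy livers 2 and 3 were below all controls and lipophagy liver 1 above them, and the log2 difference of -0.20 (standard error 0.14) became -0.35 without lipophagy liver 1 and -0.11 without lipophagy liver 2. C1ra, the protease of the C1 complex, differed by 0.034 (standard error 0.082), and its sign turned with TPM scaling and quantile normalization (-0.15 and -0.14).

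The terminal components, which build the membrane attack complex, held the widest range. C8g, the lipocalin-like gamma chain of C8, had 1 of the largest positive differences of all members, beside Masp1. It was at 303, 362 and 315 FPKM in the control livers and 494, 420.0 and 376 FPKM in the lipophagy livers, above every control liver in each lipophagy liver, with a log2 difference of 0.39 (standard error 0.12, adjusted p = 0.177, limma) that remained above 0 under every scaling. Its gene (chromosome 2, 25498651 to 25501719, minus strand) overlaps Fbxw5 on the opposite strand, and the strand setting of the counting is not given in the sources used here. The alpha and beta chains of C8, whose genes lie 11131 bases apart on chromosome 4, differed less. C8a was at 233 ± 26.8 FPKM in control and 243 ± 26.1 FPKM in lipophagy livers and C8b at 173 ± 30.3 FPKM in control and 209 ± 47.6 FPKM in lipophagy livers (SD, n = 3), both with overlap. C8g over C8a was 1.49, 1.47 and 1.25 in the control livers and 2.31, 1.64 and 1.44 in the lipophagy livers, with lipophagy liver 1 far above the others and lipophagy liver 3 among the controls (two-sided exact permutation test, p = 0.3, adjusted 0.45). Without lipophagy liver 1 its log2 difference of 0.33 was 0.13. C6 was at 91.6, 128 and 121 FPKM in the control livers and 66.8, 126 and 97.0 FPKM in the lipophagy livers; its lowest value, in lipophagy liver 1, carried the log2 difference of -0.26 (standard error 0.22), which was -0.024 without that liver and -0.48 without lipophagy liver 2. C5 (Hc) differed by -0.14 (standard error 0.12) and C9, the pore-forming component, by 0.080 (standard error 0.15), with overlap in both. The difference of Hc was likewise smallest without lipophagy liver 1, at -0.024.

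Of the 4 soluble regulators 1 separated the groups, being lower, as were 10.8% of all tested genes, and 0 were higher without overlap, against 15.4%. Serping1, the C1 inhibitor that also blocks kallikrein and factor XII, was at 459, 472 and 482 FPKM in the control livers and 415, 439 and 436 FPKM in the lipophagy livers, below the controls in each lipophagy liver and lower under every scaling (log2 difference -0.13, standard error 0.079, adjusted p = 0.378, limma). Factor I (Cfi), which cleaves C3b and C4b, its cofactor C4bp and vitronectin (Vtn), which blocks the terminal complex, had differences of 0.049, 0.10 and 0.039 (standard errors 0.087, 0.097 and 0.087). Without control liver 1 that of C4bp was 0.016 and that of Vtn 0.0037, and without lipophagy liver 3 that of Cfi was -0.0052. The groups overlapped in each, and all 3 differences were below 0 with TPM scaling and quantile normalization.

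**Figure D4:**
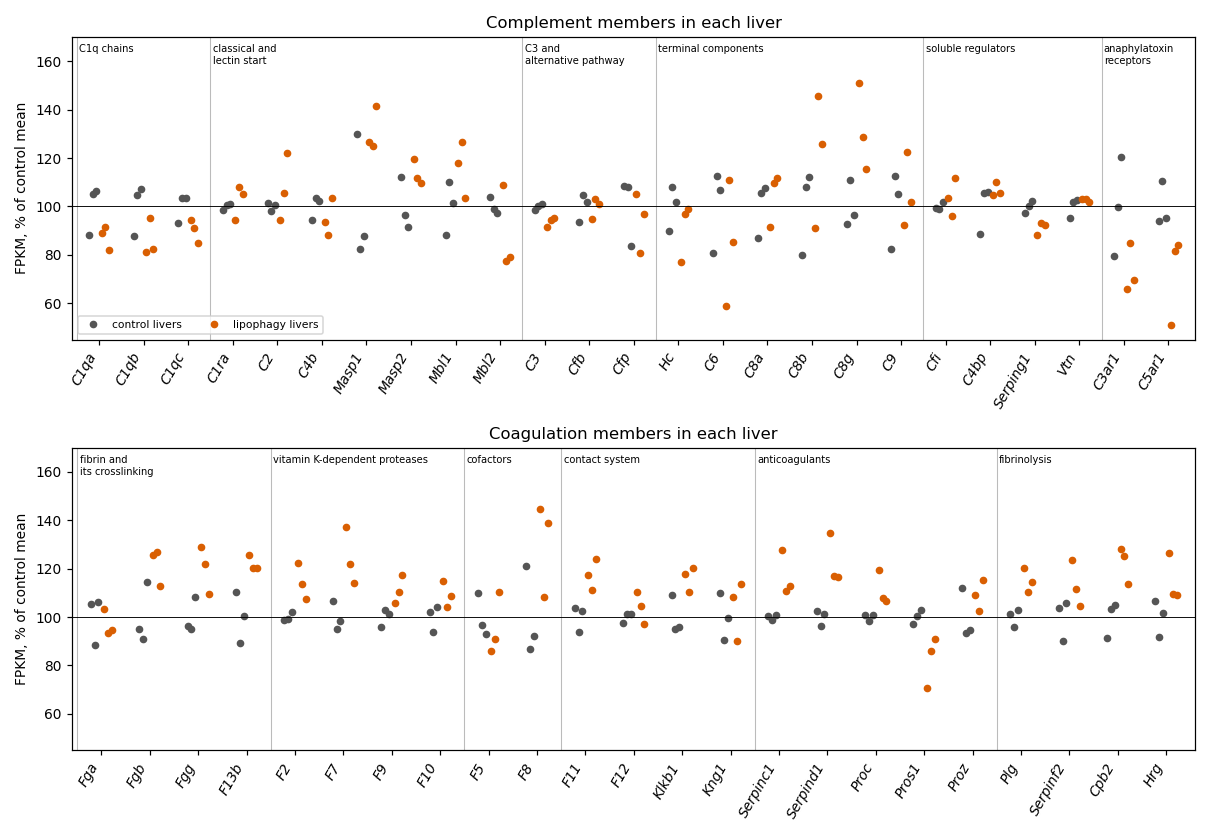
FPKM of each tested member in each liver as a percentage of the mean of the 3 control livers, with complement above and coagulation below, ordered by role. In FPKM as deposited 14 of the 22 hepatocyte-made coagulation genes (63.6%, against 15.4% of all tested genes) have all 3 lipophagy livers above the control livers, while complement genes overlap, apart from C8g above and C3, Serping1 and C5ar1 below.

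Fibrinogen, the soluble precursor of fibrin, is a dimer of 3 chains in equal number, and its genes form a cluster on chromosome 3 of GRCm38 at 83007724 to 83015049 (Fgg, plus strand), 83026076 to 83033627 (Fga, plus strand) and 83040141 to 83049863 (Fgb, minus strand). In FPKM as deposited the mean levels of the beta and gamma chains were higher in the lipophagy livers and that of the alpha chain was not. With TPM scaling and quantile normalization the log2 differences were -0.22 and -0.25 for Fga, 0.11 and 0.16 for Fgb and 0.082 and 0.10 for Fgg, so which chain differed depended on the scaling. Fga was at 1791, 1499 and 1799.7 FPKM in the control livers and 1754, 1584 and 1607 FPKM in the lipophagy livers, with a log2 difference of -0.038 (standard error 0.11, adjusted p = 0.870, limma). Fgb was at 2942, 2815 and 3544 FPKM in the control livers and 3901, 3931 and 3495 FPKM in the lipophagy livers, with 0.29 (standard error 0.12, adjusted p = 0.248, limma), and control liver 3 reached the lipophagy range. Fgg was at 2492, 2457 and 2800.1 FPKM in the control livers and 3336, 3151 and 2831 FPKM in the lipophagy livers, with 0.27 (standard error 0.11, adjusted p = 0.244, limma) and no overlap. The ratio between chains is untouched by any scaling that multiplies a liver by 1 factor, as TPM scaling does, though not by quantile normalization. Fgb over Fga was 1.64, 1.88 and 1.97 in the control livers and 2.22, 2.48 and 2.17 in the lipophagy livers, and Fgg over Fga was 1.39, 1.64 and 1.56 in the control livers and 1.90, 1.99 and 1.76 in the lipophagy livers. For both ratios each lipophagy liver lay above each control liver, with log2 differences of 0.33 and 0.30, and the two-sided exact permutation test gave p = 0.1, the smallest possible with 3 livers against 3 (adjusted over the 6 ratios 0.3). With 1 liver left out the log2 differences stayed between 0.25 and 0.38 for Fgb over Fga and between 0.24 and 0.36 for Fgg over Fga.

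**Figure D5:**
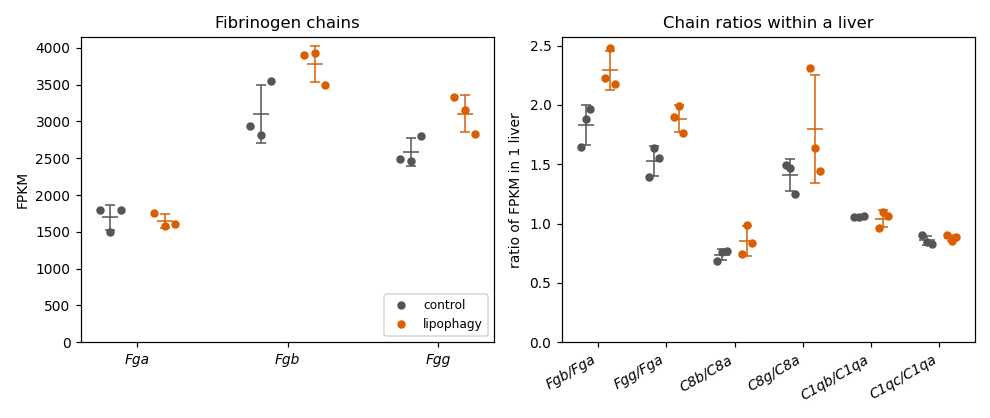
Left, FPKM of the fibrinogen chains in each liver; right, ratios of FPKM within a liver for fibrinogen, C8 and C1q chains (points are livers, ticks means, bars SD, n = 3). Both fibrinogen ratios lie higher in the lipophagy livers without overlap, from a mean of 1.83 to 2.29 for Fgb over Fga and from 1.53 to 1.88 for Fgg over Fga, while C8 and C1q ratios overlap.

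The 250 bases before each fibrinogen start are shown because these neighbouring genes, made in one cell type for one protein, had unlike differences between the groups. They are from RefSeq (GRCm38.p6), written 5′ to 3′ on the strand of the gene, at chr3:83025903-83026152 (plus, before a RefSeq start that lies inside the GENCODE gene), chr3:83049864-83050113 (minus) and chr3:83007474-83007723 (plus). Capitals mark matches on either strand to GTTAAT (HNF1, a hepatocyte factor), TTGCNNAA (C/EBP) and CTGGGAA (interleukin-6 response element), and no 2 matches overlap.
Fga: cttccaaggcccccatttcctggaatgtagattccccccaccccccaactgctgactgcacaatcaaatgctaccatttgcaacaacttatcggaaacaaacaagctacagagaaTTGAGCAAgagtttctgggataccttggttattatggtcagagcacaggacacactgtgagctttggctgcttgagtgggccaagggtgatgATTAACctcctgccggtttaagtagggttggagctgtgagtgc
Fgb: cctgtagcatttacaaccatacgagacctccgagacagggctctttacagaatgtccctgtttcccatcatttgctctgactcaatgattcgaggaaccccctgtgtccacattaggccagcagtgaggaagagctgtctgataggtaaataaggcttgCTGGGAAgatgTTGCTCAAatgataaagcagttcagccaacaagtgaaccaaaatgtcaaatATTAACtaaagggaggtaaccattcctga
Fgg: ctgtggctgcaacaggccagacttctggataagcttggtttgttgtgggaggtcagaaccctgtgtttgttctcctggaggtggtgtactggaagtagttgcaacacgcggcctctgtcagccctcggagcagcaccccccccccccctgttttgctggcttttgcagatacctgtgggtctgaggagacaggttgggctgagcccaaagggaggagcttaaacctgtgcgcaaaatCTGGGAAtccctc
The Fgb window held all 3 motifs, the Fga window the HNF1 and C/EBP letters, and the Fgg window CTGGGAA alone, 13 bases before the start. RefSeq windows were found for 39 of the 49 members. GTTAAT was in 11 of them (28.2%) and in 6.43% of all 32851 windows of this length, TTGCNNAA in 8 (20.5%) against 9.56%, and CTGGGAA in 5 (12.8%) against 9.1%. An exact match to CTGGGAA was found in the Fgb and Fgg windows and not in the Fga window. Near matches, such as ctgggat in the Fga window, were not counted. This is a description of these letters and not of binding, and any link to the differences was not tested.

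F13b, the carrier subunit of the fibrin-crosslinking factor XIII, was at 75.1, 60.7 and 68.4 FPKM in the control livers and 85.6, 82.0 and 82.0 FPKM in the lipophagy livers, higher in each lipophagy liver, with a log2 difference of 0.29 (standard error 0.093, adjusted p = 0.182, limma). The catalytic subunit F13a1, made by myeloid cells and platelets, was under the filter at 0.102 FPKM in control livers.

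In FPKM as deposited the vitamin K-dependent proteases F2, F7, F9 and F10 were all higher without overlap, as were 15.4% of all tested genes and 35.1% of those of 20 FPKM or more, while F9 and F10 turned below 0 with TPM scaling. F7, which meets tissue factor to start clotting, was at 43.6, 38.7 and 40.1 FPKM in the control livers and 56.0, 49.7 and 46.5 FPKM in the lipophagy livers, and had the lowest adjusted p of all members (log2 difference 0.31, standard error 0.093, adjusted p = 0.171, limma). Prothrombin (F2) was at 833, 837 and 863 FPKM in the control livers and 1031, 961 and 906 FPKM in the lipophagy livers, a log2 difference of 0.19 (standard error 0.089, adjusted p = 0.278, limma). F9 was at 72.5 ± 2.72 FPKM in control and 80.7 ± 4.29 FPKM in lipophagy livers and F10 at 193 ± 10.7 FPKM in control and 211 ± 10.5 FPKM in lipophagy livers (SD, n = 3), with log2 differences of 0.15 and 0.13. That of F10 was 0.082 without control liver 2. With TPM scaling the log2 differences of F7 and F2 were 0.13 and 0.0098, and those of F9 and F10 -0.030 and -0.054. F7, F10 and protein Z (Proz) stand in a row on chromosome 8, 1499 and 4238 bases apart, and their differences were 0.31, 0.13 and 0.13.

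Neither cofactor separated the groups. F5, the cofactor of factor Xa, was at 56.0, 49.2 and 47.3 FPKM in the control livers and 43.7, 46.3 and 56.0 FPKM in the lipophagy livers, with overlap and a log2 difference of -0.066 (standard error 0.11, adjusted p = 0.769, limma). F8, the cofactor of factor IXa, was low, at 0.594, 0.425 and 0.451 FPKM in the control livers and 0.710, 0.531 and 0.681 FPKM in the lipophagy livers, or 96.3 to 161 fragments a liver. Its difference of 0.14 (standard error 0.085) was above 0 under every scaling, but the groups overlapped. Of 9 sinusoidal endothelial markers, 7 were higher and 2 were lower on average (4 and 5 with TPM scaling), and the groups overlapped in all 9. As deposited, 54.5% of all tested genes were above 0. Stab2 differed by 0.11 and Pecam1 by -0.11 on the log2 scale, and the part of these cells in F8 was not tested.

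Of the contact system, the neighbours F11 and Klkb1 (chromosome 8, 4658 bases apart) were higher in each lipophagy liver. F11 was at 41.4, 37.5 and 41.0 FPKM in the control livers and 46.9, 44.4 and 49.6 FPKM in the lipophagy livers (log2 difference 0.23, standard error 0.081, adjusted p = 0.204, limma). Plasma prekallikrein (Klkb1) was at 48.1, 41.9 and 42.3 FPKM in the control livers and 52.0, 48.7 and 53.1 FPKM in the lipophagy livers (log2 difference 0.21, standard error 0.085, adjusted p = 0.233, limma), and the annotated gene Gm45753 overlaps it on the same strand. F12, which starts the contact route, and kininogen (Kng1), the source of bradykinin, did not separate the groups. F12 was at 284 ± 6.21 FPKM in control and 295 ± 18.6 FPKM in lipophagy livers and Kng1 at 1307 ± 125 FPKM in control and 1360.0 ± 161 FPKM in lipophagy livers (SD, n = 3), and reads of Kng1 may be shared with its near copy Kng2.

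The anticoagulants held both directions. Antithrombin (Serpinc1) was at 989, 974 and 998 FPKM in the control livers and 1259.5, 1095 and 1115 FPKM in the lipophagy livers, and heparin cofactor II (Serpind1) at 244, 229 and 241 FPKM in the control livers and 321, 279 and 277 FPKM in the lipophagy livers. The lipophagy livers were above the controls for both, with log2 differences of 0.23 (standard error 0.092, adjusted p = 0.243, limma) and 0.29 (standard error 0.090, adjusted p = 0.172, limma). Both stayed above 0 under every scaling. Serpind1 lies inside Pi4ka, which is on the opposite strand. Protein C (Proc) was at 389 ± 5.78 FPKM in control and 432 ± 28.2 FPKM in lipophagy livers (SD, n = 3), higher without overlap, but below 0 with TPM scaling and quantile normalization (-0.030 and -0.066). Its cofactor protein S (Pros1), which hepatocytes, endothelium and macrophages all make, went the other way. Pros1 was at 23.5, 24.3 and 24.9 FPKM in the control livers and 17.2, 20.9 and 22.1 FPKM in the lipophagy livers, lower in each lipophagy liver and under every scaling, with a log2 difference of -0.27 (standard error 0.10, adjusted p = 0.218, limma). Without lipophagy liver 1 its difference was -0.17. As deposited it was the only hepatocyte-made member that was lower at an unadjusted p below 0.05. Proz, the cofactor of the inhibitor of factor Xa, was at 90.5 ± 9.31 FPKM in control and 98.6 ± 5.93 FPKM in lipophagy livers, with overlap, and its log2 difference of 0.13 was 0.21 without control liver 1 and 0.080 without control liver 2.

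All 4 genes of fibrinolysis were higher on average in FPKM as deposited, and Serpinf2 and Hrg turned below 0 under another scaling. Plasminogen (Plg) was at 793, 748 and 803 FPKM in the control livers and 941, 863 and 896 FPKM in the lipophagy livers (log2 difference 0.20, standard error 0.086, adjusted p = 0.249, limma). Cpb2, the carboxypeptidase that removes plasminogen-binding ends from fibrin, was at 266, 300.02 and 305 FPKM in the control livers and 372, 364 and 330.1 FPKM in the lipophagy livers (log2 difference 0.29, standard error 0.094, adjusted p = 0.182, limma). For both, the lipophagy livers lay above the controls. Histidine-rich glycoprotein (Hrg), which binds plasminogen and heparin, was at 520.5 ± 38.7 FPKM in control and 599 ± 52.5 FPKM in lipophagy livers, and α2-antiplasmin (Serpinf2), the direct inhibitor, at 321 ± 27.5 FPKM in control and 363 ± 30.8 FPKM in lipophagy livers (SD, n = 3). Hrg did not overlap between groups and Serpinf2 did, and with quantile normalization both were just below 0 (-0.0051 and -0.0059).

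Beyond the members, 66 symbols of the same pathways were listed, of which 62 were in the table and 46 were tested. At an unadjusted p below 0.05, 6 of these 46 were higher (against 11.5% of all tested genes) and 7 were lower (against 7.97%), and 0 had an adjusted p below 0.05 (limma). By role, all 9 other soluble complement genes had differences above 0 (5 with TPM scaling and 6 with quantile normalization), as had all 5 genes of the vitamin K cycle and of factor export (3 and 4). Of 6 other genes of fibrinolysis 5 were below 0 (5 and 4). As deposited, 54.5% of all tested genes and 82.2% of those of 20 FPKM or more were above 0. The largest positive difference was that of Lman1, the endoplasmic reticulum lectin that carries factors V and VIII to the Golgi, at 42.2, 45.7 and 43.9 FPKM in the control livers and 66.8, 52.0 and 65.1 FPKM in the lipophagy livers (log2 difference 0.46, standard error 0.11, adjusted p = 0.134, limma). Its partner Mcfd2 was at 81.2 ± 6.05 FPKM in control and 91.6 ± 4.26 FPKM in lipophagy livers. Hgfac (0.41), a protease related to factor XII, and Vsig4 (0.40), the Kupffer cell receptor for C3b that is also on the macrophage list, were higher too, each without overlap between groups. Among the lower genes, Gas6, a vitamin K-dependent protein related to protein S, was at 20.7, 26.4 and 26.5 FPKM in the control livers and 14.5, 19.98 and 12.7 FPKM in the lipophagy livers (log2 difference -0.62, standard error 0.16, adjusted p = 0.148, limma). Serpine2 (protease nexin, -0.49), the plasminogen receptor Plgrkt (-0.35) and urokinase (Plau, -0.34) were also below the controls in each lipophagy liver. Gas6, Serpine2, Plgrkt and Plau were lower and Lman1, Hgfac and Vsig4 higher under every scaling compared.

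Markers of other cells are given as values, and their adjusted p were 0.103 (Col1a1, limma) or more. All 4 bile duct markers were lower on average, with overlap between groups (3 with quantile normalization, median -0.50), with summed levels of 5.81 to 11.96 FPKM in control and 4.35 to 9.72 FPKM in lipophagy livers. Also lower on average with overlap were the 2 tested lymphocyte markers (median -0.19), the 2 tested platelet markers (1 with quantile normalization, -0.11) and 1 fat cell gene, Fabp4 (-0.24). Of 6 stellate cell markers 5 were lower on average (median over all 6 of -0.13), and Col1a1, a chain of type I collagen (-0.75), and Pdgfrb (-0.32) were lower without overlap. Of the 2 tested neutrophil markers, both lower on average (median -0.48), S100a9 (-0.60) was lower without overlap and S100a8 (-0.37) overlapped. All 5 blood genes tested were above 0 on average (median 1.03), with overlap in 4 of them. That median was the difference of Hbb-bs. Hbb-bs was at 0.00292, 0.00294 and 3.85 FPKM in the control livers and 0.00298, 5.66 and 5.19 FPKM in the lipophagy livers. Hba-a2 was at 0.0204, 0.0209 and 0.0205 FPKM in the control livers and 10.1, 11.6 and 0.0203 FPKM in the lipophagy livers. How reads were split among near copies of these genes was not tested. Alas2, the erythroid enzyme of heme synthesis, was at 73.8, 77.8 and 70.4 FPKM in the control livers and 93.8, 94.0 and 78.7 FPKM in the lipophagy livers, above the controls in each lipophagy liver. Hbb-b1 was highest in lipophagy liver 2, where it reached 191 FPKM against 14.3 to 35.7 FPKM in the other 5. Of the 4 kidney and pancreas genes searched as stray tissue, Prss2 and Cpa1 were at 0 in all livers and Umod was above 0 in lipophagy liver 1 alone (0.0345 FPKM). Cela1, an elastase of the pancreas, was at 10.8, 11.2 and 11.9 FPKM in the control livers and 16.7, 14.2 and 11.6 FPKM in the lipophagy livers (log2 difference 0.29, standard error 0.12, adjusted p = 0.255, limma), with overlap and above 0 under every scaling.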

How the data were processed

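RNA of 3 control and 3 lipophagy livers was sequenced from stranded poly(A) libraries as paired 100 bp reads. The authors deposited 1 FPKM value per gene symbol and liver. The submitters' processing notes name TopHat2 2.0.13, Bowtie2 2.2.3, SAMtools 0.1.19, Cufflinks 2.2.1 and the build mm10, and the annotation and the counting options are not given in the sources used here. A count model was not applied to FPKM, and replicate livers were taken from the sample titles. Date-like entries stood in place of 27 gene symbols.

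The scale was log2(FPKM + 1), on which differences of low genes are understated. Genes averaging 0.5 FPKM or more were fitted with limma 3.58.1 in R 4.3.3 (intensity trend, two-sided, no covariates), with Benjamini-Hochberg adjustment over all tested genes and a threshold of 0.05. Ratios within a liver were compared with an exact permutation test (scipy 1.17.1). Depth was read from the steps of values below 0.15 FPKM and the lengths of single-transcript genes of GENCODE M21 (GRCm38, the same assembly as mm10) less a fragment of 150 bases; numbers of fragments are such estimates and cover counting error only. Alternatives were other pseudocounts, filters and scalings, no trend, a replicate block and each liver left out. The procedure was tested on simulated data. TPM scaling divided each liver by its FPKM sum.

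All members may be named; of the other pathway genes, the 4 largest differences in each direction at an unadjusted p below 0.05, of which 1 is not reported here; of the markers, the defining ones, and Fabp4, Hpd, Col1a1, Alas2, Cela1, Umod, Adipoq, Lep, Vsig4, Hbb-b1, Prss2, Cpa1, C4a, F13a1, Mcfd2, Kng2, Axl and Mertk were named after their values were seen. The members and lists were chosen with earlier results of these data known.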

Additional observations from a re-analysis of the deposited data

How the results depend on the processing

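With other pseudocounts, filters, no trend and scaling to the same median, the members' counts and medians kept their values within 1.5 times, except that without a filter 1 member, not 3, was lower at an unadjusted p below 0.05, as among members of at least 20 FPKM (1), a limit chosen after seeing the data. Scaling decided most. With TPM scaling 0 members were higher and 12 lower at an unadjusted p below 0.05 (all tested genes 2.05% and 21.8%), 1 was higher and 16 lower without overlap (all tested genes 2.74% and 27.2%), and of the other pathway genes 1 was higher and 11 lower. With quantile normalization the same counts were 1 and 12 (6.48% and 7.82%), 2 and 13 (10.2% in each direction), and 3 higher other genes. The medians with TPM scaling and with quantile normalization were -0.054 and -0.032 for hepatocyte-made members, -0.13 and -0.14 for complement, 0.014 and 0.0064 for coagulation, and -0.37 and -0.35 for C1q. The sum of FPKM differed between the groups, and which scaling holds was not tested. Signs that turned with TPM scaling and with quantile normalization were those of C1ra (-0.15, -0.14), C2 (-0.086, -0.049), C8a (-0.12, -0.11), C9 (-0.10, -0.12), Cfi (-0.13, -0.15), C4bp (-0.081, -0.098), Vtn (-0.14, -0.16), F10 (-0.054, -0.032), F12 (-0.13, -0.14), Kng1 (-0.13, -0.12), Proc (-0.030, -0.066), Proz (-0.056, -0.018) and Serpinf2 (-0.0051, -0.0059), with F9 (-0.030) with TPM scaling, Hrg (-0.0051) with quantile normalization and Cfb (8.6e-05) at the same median.

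With 1 liver left out, members higher at an unadjusted p below 0.05 numbered 4 to 10 (all tested genes 6.96% to 14%) and lower 0 to 5 (all tested genes 5.24% to 8.2%: 0 without control liver 2 or 3, 1 without lipophagy liver 1, 5 without lipophagy liver 2); without overlap 16 to 20 were higher (all tested genes 18.4% to 25.9%) and 5 to 9 lower (14.3% to 18.5%), the most lower ones without control liver 1. The hepatocyte-made median was 0.11 to 0.15, that of complement 0.0037 (without control liver 1) to 0.094 (without lipophagy liver 1), and C1qb over C1qa -0.064 to 0.032. Signs turned for C1ra (-0.0052 to 0.094), C2 (-0.00044 to 0.18), C8a (-0.036 to 0.15), C9 (-0.053 to 0.17), Cfb (-0.048 to 0.034), Cfi (-0.0052 to 0.10), Cfp (-0.19 to 0.024), F5 (-0.17 to 0.0066), Fga (-0.12 to 0.0074) and Kng1 (-0.013 to 0.15). In every limma fit 0 members reached an adjusted p below 0.05, and the smallest value was 0.0523, with TPM scaling. The labels give both groups the same replicate numbers, but the numbers were not taken as pairs (correlations of deviations 0.25, 0.23 and -0.057; control liver 3 correlated best with lipophagy liver 2). With the replicate block 8 members were higher and 4 lower at an unadjusted p below 0.05 (all tested genes 9.86% and 7.93%), and 43 of all genes passed the adjustment instead of 3. Depth limits C5ar1, F8 and Cfd, and 3 livers a group limit all exact tests to p = 0.1.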

Other observations

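Pros1 and Gas6 were both lower in the lipophagy livers. Gas6 encodes a ligand of the receptors Tyro3, Axl and Mertk, which clear dying cells, and Pros1 a ligand of Tyro3 and Mertk. The receptors were looked up after these values were seen. Axl was at 6.34, 6.95 and 6.34 FPKM in the control livers and 5.43, 5.28 and 5.74 FPKM in the lipophagy livers, below the controls in each lipophagy liver, with a log2 difference of -0.22 (standard error 0.077, adjusted p = 0.204, limma) that was below 0 under every scaling. Mertk was at 2.50, 2.25 and 2.27 FPKM in the control livers and 1.79, 1.87 and 3.43 FPKM in the lipophagy livers, with lipophagy liver 3 above and the other 2 below the controls, and a log2 difference of -0.022 (0.039 with quantile normalization). Tyro3 was under the filter, at 0.0772, 0.163 and 0.106 and 0.0762, 0.0677 and 0.0417 FPKM. The ligand Gas6 was higher than Axl in every liver on the FPKM scale.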
